A study of Mus musculus with 24 samples.

Results

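Genes of fatty acid uptake, lipolysis and beta-oxidation were described in mouse brown adipose tissue (BAT) and in the ventromedial hypothalamus (VMH). They were chosen as 41 named genes, of which 38 had a feature on the array annotated with that symbol alone, out of 30063 genes with such a feature. Acsl3 and Etfb share their features with another symbol, and Acsl1 had no feature under its symbol alone, so these 3 were not analysed here. Acsl5 had 2 features and the brighter one within a tissue stood for it, while each of the other members had 1.

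BAT, the thermogenic fat, takes up fatty acids released from circulating triglyceride by lipoprotein lipase and stores them in lipid droplets. Lipases release them from the droplet, acyl-CoA synthetases activate them, the carnitine shuttle carries them into the mitochondrion, and the beta-oxidation spiral shortens them in repeated cycles of dehydrogenation, hydration, dehydrogenation and thiolysis. The electrons pass through the electron transfer flavoprotein to the respiratory chain, which brown adipocytes uncouple through UCP1. PPARα is a nuclear receptor that drives many of these genes. The VMH is a hypothalamic nucleus that regulates energy balance, including sympathetic outflow to BAT, and in the brain much of fatty acid oxidation takes place in astrocytes.

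Total RNA was measured on 24 Affymetrix arrays, with 3 arrays in each of 8 groups. In each tissue the groups were mice labelled Gfap-Bmal1 cKO on a high fat diet (HFD), control mice on HFD, cKO mice on a standard diet (SD) and control mice on SD, each fed for 16 weeks. As labelled, Bmal1, which codes for a core clock transcription factor, is knocked out conditionally through the astrocyte gene Gfap; the sources used here do not give the Cre line, the deleted exons or the ages of the mice. Gfap itself read between 3.47 and 3.63 on the BAT arrays, below the level at which a gene was tested. Bmal1 (Arntl) was not lower in cKO arrays: averaged over diets the difference was 0.40 ± 0.12 in VMH (SE, limma adjusted p = 0.243) and 0.37 ± 0.24 in BAT (adjusted p = 0.674), so directions between genotypes rest on the labels. No label states whether replicate arrays stand for different mice, so the p-values reflect a spread between arrays that could be technical.

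All values are deposited log2 signals, with a ceiling at 19.93, and each difference is between log2 signals. Array medians over all features lay between 4.069 and 4.157 in BAT and between 5.482 and 5.572 in VMH, and the tissues were fitted apart. A gene was tested where its mean signal in the tissue reached the median of all features (4.1275 in BAT, 5.5069 in VMH), which left 17104 genes in BAT and 16178 in VMH. All 38 members passed this filter in BAT and 33 in VMH. A call is a Benjamini-Hochberg adjusted p under 0.05 from limma over all genes tested. Precision is limited by there being 3 arrays in a group.

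The BAT arrays did not form even groups. Skeletal muscle markers, 18 of 18 measured, averaged a log2 signal of 5.43, 10.05 and 12.62 on cKO HFD arrays 1 to 3 and 6.60, 5.39 and 9.21 on control HFD arrays 1 to 3, against 14.42, 17.26 and 16.49 on cKO SD arrays and 17.46, 5.36 and 16.32 on control SD arrays. Only 1 of the 18 fell below the filter level on any array, control HFD array 2. Ucp1, the defining gene of brown adipocytes, was at the ceiling on 9 of 12 arrays but stood at 8.87 on control SD array 1, 16.30 on cKO SD array 2 and 19.31 on cKO SD array 3. Brown adipocyte markers, 13 of 14 measured, averaged 13.30 to 14.03 on the 6 HFD arrays, against 11.17 to 13.39 on cKO SD arrays and 9.90 to 14.13 on control SD arrays. BAT results are therefore given with and without control SD array 1 and cKO SD array 2, the pair with the lowest Ucp1, and with the muscle marker mean as a covariate. In a bulk sample, fewer cells of a type and less RNA per cell cannot be told apart.

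The members' levels also differed between arrays of a group, most on SD. Their median log2 signal in BAT was 14.90, 15.60 and 15.24 on cKO HFD arrays and 15.65, 15.68 and 15.99 on control HFD arrays, against 14.85, 12.26 and 13.33 on cKO SD arrays and 12.20, 16.17 and 14.28 on control SD arrays. The median of all genes stayed between 6.52 and 6.60. The lowest of a member's 12 values lay on control SD array 1 for 27 of 38 members, against 14.7% of all genes, and on cKO SD array 2 for 5 more, against 17.4%. The range within a group had a member median of 0.43 in cKO HFD and 0.47 in control HFD, against 2.30 in cKO SD and 2.71 in control SD, where the all-gene medians were 0.32, 0.28, 0.41 and 0.45 in that order.

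**Figure D1:**
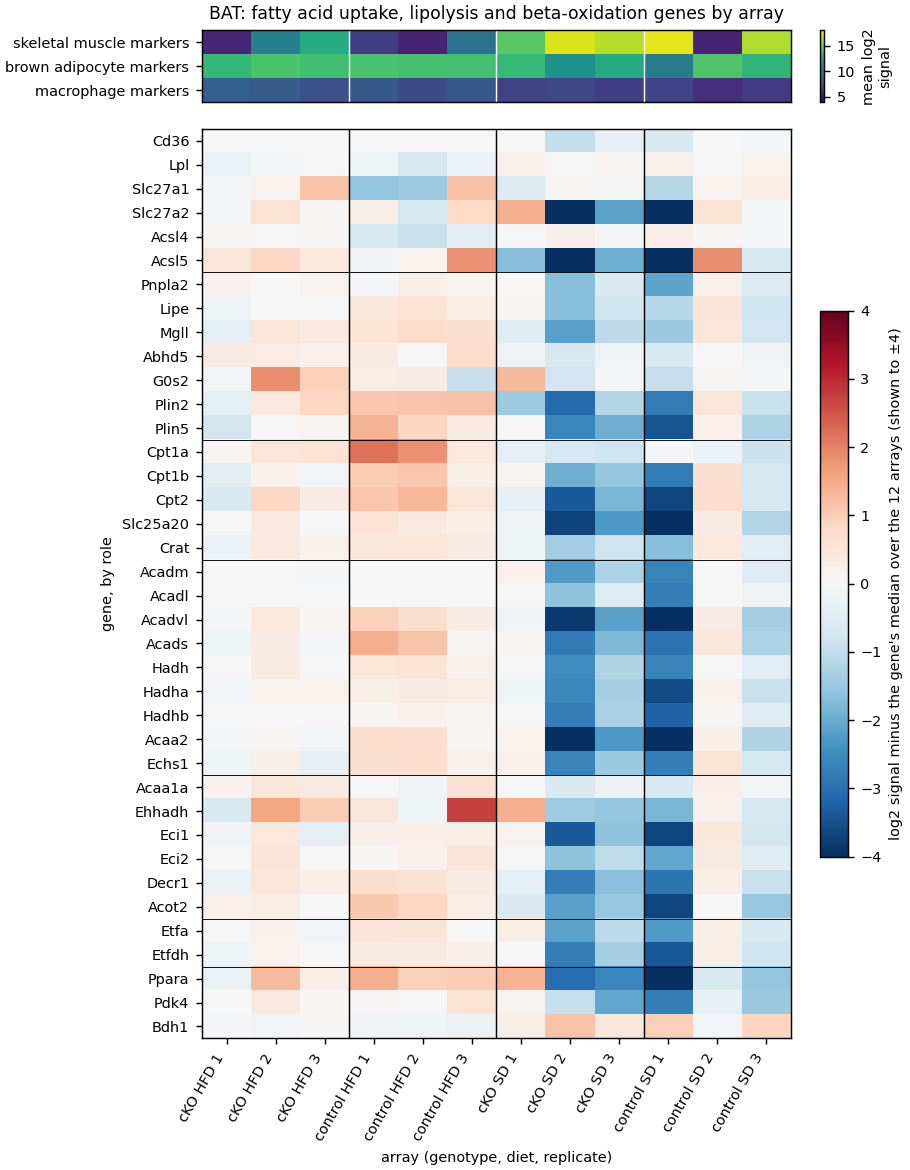
Log2 signal of each of 38 members on the 12 BAT arrays (columns, by group), as the difference from that gene's median over the arrays (red above, blue below, shown to ±4), with the mean log2 signal of 3 marker lists on top. Control SD array 1 and cKO SD arrays 2 and 3 are blue over most oxidation genes and bright in the muscle row, while control SD array 2, with a muscle mean of 5.36, looks like the HFD arrays.

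**Figure D2:**
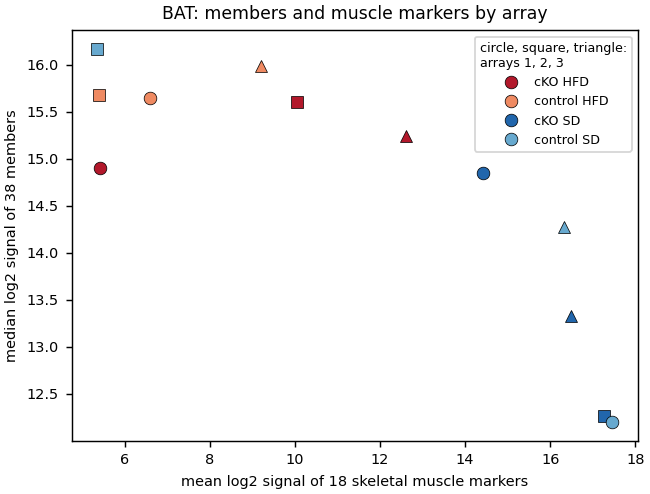
Median log2 signal of the 38 members (vertical axis) against the mean log2 signal of 18 skeletal muscle markers (horizontal axis), 1 point per BAT array, coloured by group. The members' median is 14.85 or higher on all 8 arrays with a muscle mean up to 14.42 and 14.28 or lower on the 4 arrays above it. This cut was chosen from the values shown. Among the 8 arrays the lowest medians, 14.85 on cKO SD array 1 and 14.90 on cKO HFD array 1, lie at muscle means of 14.42 and 5.43.

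Promoter windows are shown for 3 members called between the diets in BAT, averaged over genotypes and with all arrays in the fit. Cpt1a and Plin2 were called higher on HFD and Acsl4 lower. Within genotypes Acsl4 was called in control and not in cKO, but its interaction of genotype and diet was not called. None of the 3 calls averaged over genotypes was made without the pair of low-Ucp1 arrays or with the muscle covariate. The sequences are RefSeq windows of build GRCm38.p6, from 250 bases before to 50 bases after the transcript start, 5′ to 3′ on the gene's strand. Capitals mark the nuclear receptor half-site AGGTCA, a repeated unit of the element that PPARα binds with its partner RXR, here as its reverse complement TGACCT, and the E-box CACGTG, which BMAL1 binds with CLOCK. The windows lie at chr19:3323051-3323350 (plus strand) for Cpt1a, chr4:86670010-86670309 (minus strand) for Plin2 and chrX:142390486-142390785 (minus strand) for Acsl4.
Cpt1a: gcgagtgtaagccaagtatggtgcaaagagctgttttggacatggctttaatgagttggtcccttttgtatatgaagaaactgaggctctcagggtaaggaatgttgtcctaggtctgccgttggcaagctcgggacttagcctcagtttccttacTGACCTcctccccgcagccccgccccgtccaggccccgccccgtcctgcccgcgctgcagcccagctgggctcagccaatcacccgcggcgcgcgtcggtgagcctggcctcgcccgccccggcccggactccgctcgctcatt
Plin2: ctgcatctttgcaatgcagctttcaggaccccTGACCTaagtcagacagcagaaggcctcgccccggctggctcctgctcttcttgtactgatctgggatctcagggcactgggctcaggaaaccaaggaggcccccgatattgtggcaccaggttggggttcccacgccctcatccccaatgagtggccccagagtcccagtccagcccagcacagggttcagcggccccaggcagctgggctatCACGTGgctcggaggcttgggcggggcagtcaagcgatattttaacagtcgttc
Acsl4: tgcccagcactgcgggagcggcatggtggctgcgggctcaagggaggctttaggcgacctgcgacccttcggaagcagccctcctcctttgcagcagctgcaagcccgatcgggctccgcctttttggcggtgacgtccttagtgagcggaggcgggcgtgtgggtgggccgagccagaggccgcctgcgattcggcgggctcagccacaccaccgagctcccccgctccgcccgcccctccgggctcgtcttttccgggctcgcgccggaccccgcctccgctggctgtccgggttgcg
Counted from 1 at the 5′ end of the window, the half-site starts at base 157 in Cpt1a and at base 33 in Plin2, the E-box at base 247 in Plin2, and the Acsl4 window holds neither. Of the 41 named members, 36 had a window in the table, with 43 windows between them. On both strands, 10 of these 43 windows, from 9 members, held the half-site, against 16.3% of 32851 windows. The 9 were Abhd5, Acadm, Acadvl, Cd36, Cpt1a, Echs1, Plin2, Plin5 and Slc27a2. Acot2 and Mgll, also called higher on HFD, were not among them, and whether the half-site goes with direction was not tested. The E-box was in 4 of the 43 (Lipe, Mgll, Plin2 and Slc27a1), against 7.15%. The direct repeat of AGGTCA with 1 base between its copies was in 0 member windows and in 0.0396% of all. A match describes letters in the window and not a binding site.

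Between HFD and SD in BAT, averaged over genotypes, 8 members were called, 5 higher and 3 lower. Those that rose were Cpt1a, the outer-membrane carnitine palmitoyltransferase that commits long-chain fatty acids to the mitochondrion, by 1.42 ± 0.28 (SE, limma adjusted p = 0.0172), the lipid droplet coat gene Plin2 by 2.19 ± 0.54 (adjusted p = 0.0273), Abhd5, the coactivator of adipose triglyceride lipase, by 0.61 ± 0.15 (adjusted p = 0.0295), the mitochondrial acyl-CoA thioesterase gene Acot2 by 2.01 ± 0.54 (adjusted p = 0.0353) and Mgll, monoacylglycerol lipase, by 1.32 ± 0.37 (adjusted p = 0.0391). Those called lower were Acsl4, an acyl-CoA synthetase that prefers arachidonate, with a difference of -0.38 ± 0.10 (adjusted p = 0.0296), Lpl, lipoprotein lipase, with -0.33 ± 0.09 (adjusted p = 0.0373), and Bdh1, a ketone body dehydrogenase, with -0.70 ± 0.20 (adjusted p = 0.0423). Bdh1 passed the filter only through its SD arrays and its HFD means lay below it, so its call is a count and not a measured fall. None of these 8 calls was made without control SD array 1 and cKO SD array 2, or with the muscle covariate.

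The members called were 8 of 38, or 21.1%, against 18.5% of all genes tested, 9.96% higher and 8.58% lower. A share this near the background does not set the members apart. The members' median difference was 1.38, against 0.04 over all genes, and 35 of 38 were positive, against 57.5% of all genes. At an unadjusted p under 0.05 there were 30 of 38 members, against 37.6% of all genes. Without the pair of low-Ucp1 arrays the median was 0.59, with 34 positive, 0 members called by limma and 16 at an unadjusted p under 0.05, while 121 genes were called in all. With the muscle covariate the median was 0.38, with 35 positive, 0 called and 1 (Cpt1a) at an unadjusted p under 0.05, and 14 genes called in all.

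Beside these values, 18 of 18 muscle markers were lower on HFD, with a median of -6.48 and 6 called, and all 13 brown adipocyte markers were higher, with a median of 1.08 and 1 called (Ebf2). Macrophage markers were higher for 8 of the 8 that passed the filter, with a median of 1.21 and 4 called (Mpeg1, Cd68, Adgre1 and Lyz2). All 10 macrophage markers, tested or not, averaged 7.40 to 8.28 on cKO HFD arrays and 7.19 to 7.92 on control HFD arrays, against 6.58 to 6.97 on cKO SD arrays and 5.92 to 6.83 on control SD arrays. Endothelial and mural markers were higher for 10 of 10, with a median of 0.87 and 7 called; they averaged 9.30 to 9.34 on cKO HFD arrays and 10.06 to 10.91 on control HFD arrays, against 8.72 to 9.24 on cKO SD arrays and 8.74 to 9.80 on control SD arrays. White adipocyte markers, of which 7 of 10 passed the filter, were higher for 2 of 7, with a median of -0.88 and 2 called lower. The 9 with a feature, tested or not, averaged 7.35 to 8.22 on cKO HFD arrays and 7.19 to 7.93 on control HFD arrays, against 7.73 to 8.91 on cKO SD arrays and 7.63 to 9.88 on control SD arrays. The part of macrophage, endothelial and white adipocyte RNA in the members' differences was not tested.

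The number of calls moved with single arrays, over all genes as well as among the members. Leaving out control SD array 2, the SD array of low muscle signal, gave 31 member calls, with 5978 of 17104 genes called in all. Without cKO SD array 1 there were 29, with 5109 genes in all. There were 4 member calls when cKO HFD array 1 was left out (2016 genes in all) and 3 when control SD array 1 was (1378 genes). There were 2 in each fit without cKO SD array 3 or control HFD array 1, 2 or 3, with 1035 to 1552 genes in all. The fits without cKO HFD array 2 or 3, cKO SD array 2 or control SD array 3 each gave 1, with 893 to 1673 genes in all. Cpt1a was called in each of these 12 fits, with differences between 1.25 and 1.68 and adjusted p from 0.00747 to 0.0481, and the other 7 genes each lost the call in at least 1.

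**Figure D3:**
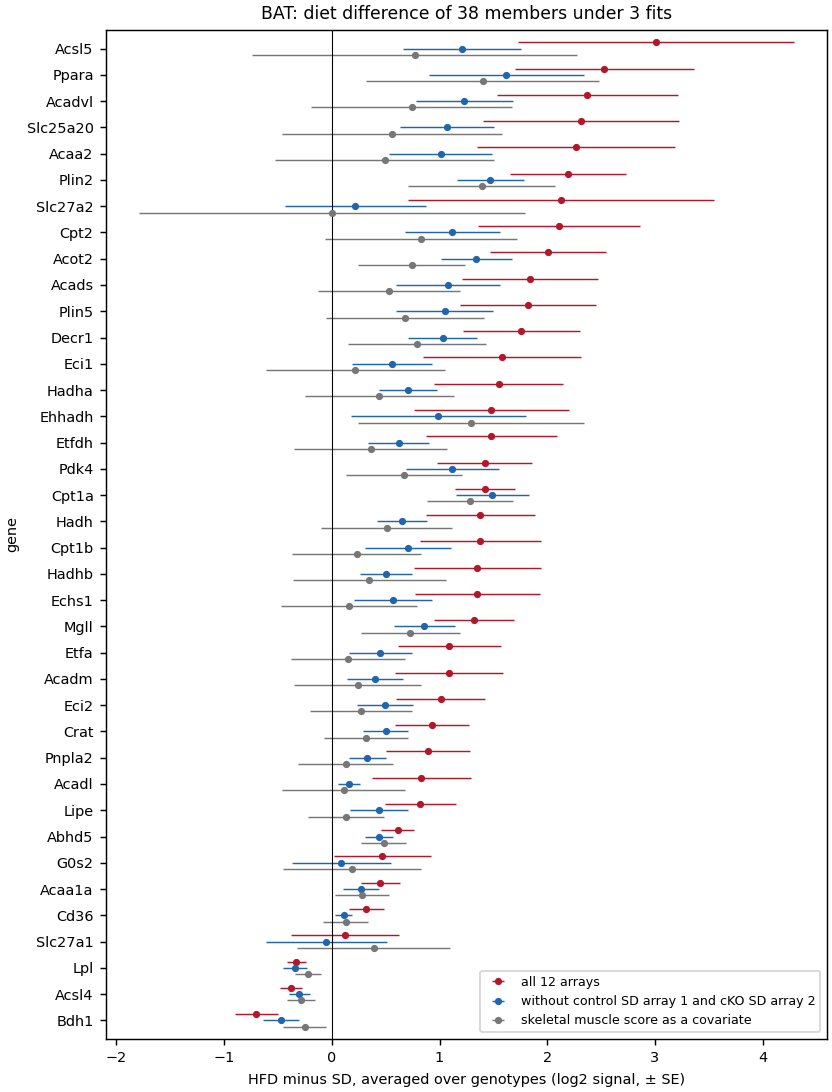
HFD minus SD averaged over genotypes for each member in BAT (log2 signal, ± SE), in all 12 arrays (red), without control SD array 1 and cKO SD array 2 (blue) and with the skeletal muscle score as a covariate (grey). The members' median is 1.38, 0.59 and 0.38 in that order, with Cpt1a at 1.42, 1.49 and 1.28, called in the first fit and not in the other two (limma adjusted p = 0.0172, 0.0737 and 0.267).

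Against the HFD arrays of their own genotype, the SD arrays differed among themselves. Of the 38 members, 34 lay below the range of the 3 cKO HFD arrays on each of cKO SD arrays 2 and 3, but 13 on cKO SD array 1, where 17 lay within it and 8 above. On the control side, 33 lay below the range of the 3 control HFD arrays on control SD array 1 and 31 on array 3, but 11 on array 2, where 22 lay within and 5 above. The median difference from the HFD mean was -0.02 on cKO SD array 1 and -0.07 on control SD array 2, and between -3.00 and -1.14 on the other 4 SD arrays.

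Cpt1a, the member called in each of the fits without 1 array, separated the diets. Its log2 signal was 8.32, 8.73 and 8.82 on cKO HFD arrays and 10.44, 10.07 and 8.69 on control HFD arrays, against 7.87, 7.58 and 7.46 on cKO SD arrays and 8.19, 8.02 and 7.41 on control SD arrays. Every HFD array was above every SD array, control SD array 2 included, and 2 of the 3 control HFD arrays stood above all others. The diet difference was 1.86 ± 0.40 in control (SE, limma adjusted p = 0.0653) and 0.99 ± 0.40 in cKO (adjusted p = 0.187). Without the pair of low-Ucp1 arrays the average over genotypes was 1.49 (adjusted p = 0.0737), and with the muscle covariate 1.28 (adjusted p = 0.267).

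The other members of the carnitine shuttle are the muscle and brown fat isoform Cpt1b, the inner-membrane enzyme Cpt2, the carnitine-acylcarnitine translocase Slc25a20 and carnitine acetyltransferase Crat. All 5 shuttle genes had positive diet differences, between 0.93 and 2.31, with Cpt1a the one call. Slc25a20 was at 17.70, 18.09 and 17.72 on cKO HFD arrays and 18.22, 18.11 and 17.98 on control HFD arrays, against 17.57, 14.01 and 15.42 on cKO SD arrays and 12.36, 18.05 and 16.55 on control SD arrays. Control SD array 2 stood among the HFD values and the other control SD arrays below them. The shuttle median was 1.42 in all arrays, 1.07 without the pair of low-Ucp1 arrays and 0.56 with the muscle covariate.

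In lipolysis and the lipid droplet, 3 of 7 genes rose (Plin2, Abhd5 and Mgll) and all 7 were positive, with a median of 0.89. Plin2 was at 16.14, 16.95 and 17.37 on cKO HFD arrays and 17.66, 17.69 and 17.73 on control HFD arrays, against 15.09, 13.46 and 15.36 on cKO SD arrays and 13.76, 17.04 and 15.65 on control SD arrays. Within each genotype the diets did not overlap, but control SD array 2 lay above 2 cKO HFD arrays. Its difference was 1.47 without the pair of low-Ucp1 arrays (adjusted p = 0.072) and 1.39 with the muscle covariate (adjusted p = 0.438).

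Mgll was at 12.77, 13.63 and 13.55 on cKO HFD arrays and 13.72, 13.90 and 13.83 on control HFD arrays, against 12.69, 10.98 and 12.11 on cKO SD arrays and 11.67, 13.63 and 12.40 on control SD arrays. The diets did not overlap within either genotype, although cKO SD array 1 nearly reached cKO HFD array 1 and control SD array 2 nearly reached control HFD array 1. Abhd5 was at 11.06, 11.04 and 10.95 on cKO HFD arrays and 11.06, 10.74 and 11.46 on control HFD arrays, against 10.54, 10.08 and 10.59 on cKO SD arrays and 10.12, 10.73 and 10.58 on control SD arrays. Here too the diets did not overlap within a genotype, with the nearest values in control, at 10.74 on HFD and 10.73 on SD. Without the pair of low-Ucp1 arrays the differences were 0.86 for Mgll (adjusted p = 0.117) and 0.44 for Abhd5 (adjusted p = 0.104), and with the muscle covariate 0.73 (adjusted p = 0.56) and 0.48 (adjusted p = 0.396).

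The remaining droplet genes did not pass. The rate-limiting triglyceride lipase gene Pnpla2 differed by 0.89 ± 0.39 (SE, limma adjusted p = 0.127), hormone-sensitive lipase Lipe by 0.82 ± 0.33 (adjusted p = 0.104), Plin5, which tethers droplets to mitochondria, by 1.82 ± 0.63 (adjusted p = 0.0694) and G0s2, the inhibitor of the PNPLA2 lipase, by 0.47 ± 0.45 (adjusted p = 0.471). G0s2 spread within groups on HFD too, between 9.95 and 11.91 on the 3 cKO arrays and between 9.12 and 10.39 on the 3 control arrays. The median of the 7 genes was 0.44 without the pair of low-Ucp1 arrays and 0.48 with the muscle covariate.

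Among uptake and activation genes, none of 6 rose and 2 fell, Acsl4 and Lpl. Acsl4 was at 10.16, 10.12 and 10.13 on cKO HFD arrays and 9.38, 9.20 and 9.67 on control HFD arrays, against 10.06, 10.31 and 10.04 on cKO SD arrays and 10.37, 10.13 and 10.05 on control SD arrays. The 3 control HFD arrays were the lowest, and the cKO HFD arrays lay within the range of the SD arrays. The diet difference was -0.77 ± 0.14 in control (SE, limma adjusted p = 0.0388), the one member called within a genotype, and 0.00 ± 0.14 in cKO (adjusted p = 0.999). The control call ended without the pair of low-Ucp1 arrays (-0.68, adjusted p = 0.141) and with the muscle covariate (-0.68, adjusted p = 0.193). Of the fits without 1 array it was kept without control SD array 2 (-0.80, adjusted p = 0.0184), cKO SD array 1 (-0.77, adjusted p = 0.0445) or control HFD array 3 (-0.90, adjusted p = 0.035). It was lost in the other 9, with differences from -0.84 to -0.66.

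Lpl was at 17.50, 17.68 and 17.76 on cKO HFD arrays and 17.60, 17.13 and 17.52 on control HFD arrays, against 17.93, 17.77 and 17.84 on cKO SD arrays and 17.95, 17.79 and 17.90 on control SD arrays. Every HFD array was below every SD array, with the nearest values both in cKO. Control SD array 1 and cKO SD array 2 stood with the other SD arrays for Lpl, unlike for most members. The difference was -0.46 ± 0.13 in control (SE, limma adjusted p = 0.105) and -0.20 ± 0.13 in cKO (adjusted p = 0.359), and averaged over genotypes -0.34 without that pair (adjusted p = 0.12) and -0.22 with the muscle covariate (adjusted p = 0.509).

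The fatty acid transporter Cd36 reached a plateau, with 8 of 12 arrays within 0.01 of 19.83, all 6 HFD arrays and some SD arrays among them. With plateau values on both diets, the size of its diet difference, 0.32 ± 0.16 (SE, limma adjusted p = 0.161), is not bounded in either direction. The transport protein Slc27a1 differed by 0.12 ± 0.50 (adjusted p = 0.888). The very long-chain acyl-CoA synthetase Slc27a2 and the long-chain acyl-CoA synthetase Acsl5 had the widest ranges within a group. Slc27a2 was at 12.13, 12.76 and 12.22 on cKO HFD arrays and 12.44, 11.49 and 12.96 on control HFD arrays, against 13.59, 8.18 and 10.02 on cKO SD arrays and 4.55, 12.75 and 12.12 on control SD arrays. Acsl5 was at 14.92, 15.28 and 14.86 on cKO HFD arrays and 14.29, 14.60 and 16.26 on control HFD arrays, against 12.75, 8.61 and 12.49 on cKO SD arrays and 8.23, 16.30 and 13.75 on control SD arrays. For both, control SD array 1 was the lowest of the 12, and neither passed (2.13 ± 1.42, adjusted p = 0.298, and 3.01 ± 1.28, adjusted p = 0.117).

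**Figure D4:**
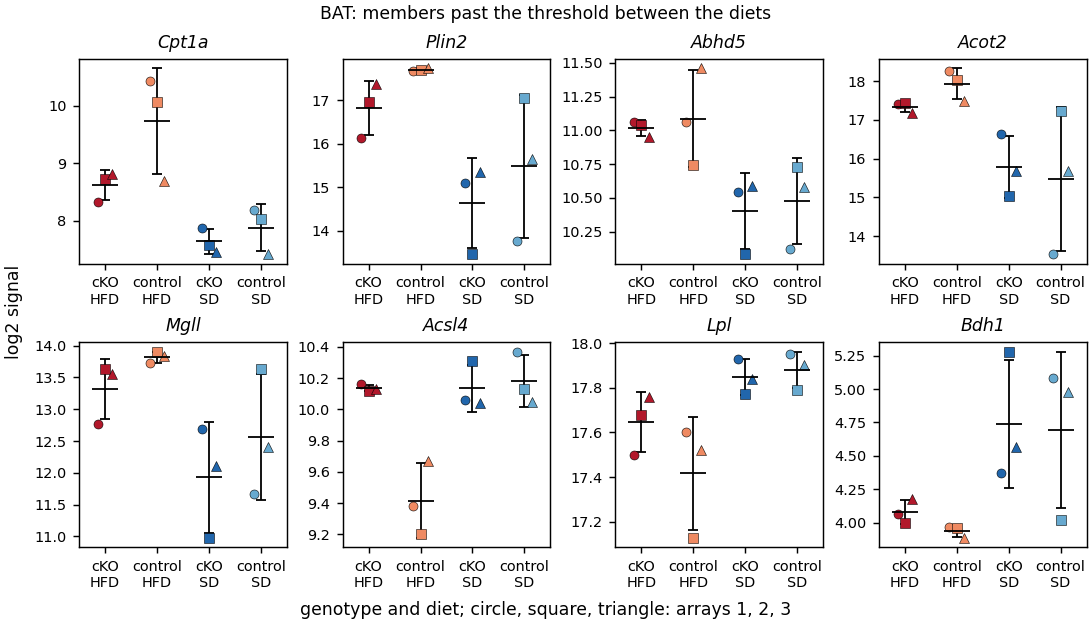
Log2 signal in BAT of the 8 members called between the diets, by genotype and diet, 1 point per array (circle, square and triangle for arrays 1, 2 and 3), with the group mean and SD; the vertical axes differ between genes and do not start at 0. Acsl4 is lowest on the 3 control HFD arrays (9.20 to 9.67), and for Plin2, Acot2 and Mgll control SD array 2 lies near the HFD arrays.

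The beta-oxidation spiral itself gave no call. Its 9 genes are the chain-length specific acyl-CoA dehydrogenases Acadvl, Acadl, Acadm and Acads, the trifunctional protein subunits Hadha and Hadhb, the short-chain enoyl-CoA hydratase Echs1, the hydroxyacyl-CoA dehydrogenase Hadh and the thiolase Acaa2. All 9 differences were positive, from 0.83 to 2.37 with a median of 1.38, and adjusted p from 0.0661 (Acads) to 0.214 (Acadl). The median was 0.65 without the pair of low-Ucp1 arrays and 0.44 with the muscle covariate.

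Acadvl was at 16.97, 17.46 and 17.12 on cKO HFD arrays and 17.99, 17.74 and 17.36 on control HFD arrays, against 16.90, 13.22 and 14.87 on cKO SD arrays and 12.33, 17.36 and 15.72 on control SD arrays. Acadl was at the ceiling on 8 arrays, among them all 6 HFD arrays, and at 19.93, 18.32 and 19.41 on cKO SD arrays and 17.20, 19.93 and 19.80 on control SD arrays. With ceiling values on both diets in each genotype, the size of its diet difference is not bounded in either direction, and it did not pass in cKO (limma adjusted p = 0.521) or control (adjusted p = 0.395). Both genes show cKO SD array 1 and control SD array 2 at or close to the HFD values.

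Of the auxiliary and peroxisomal genes, 1 of 6 rose, Acot2, and all 6 were positive with a median of 1.53. Acot2 was at 17.41, 17.43 and 17.19 on cKO HFD arrays and 18.27, 18.04 and 17.50 on control HFD arrays, against 16.63, 15.03 and 15.68 on cKO SD arrays and 13.53, 17.22 and 15.68 on control SD arrays. The diets did not overlap within a genotype, while control SD array 2 lay above cKO HFD array 3. Its difference was 1.34 without the pair of low-Ucp1 arrays (adjusted p = 0.0804) and 0.74 with the muscle covariate (adjusted p = 0.589). Decr1, the dienoyl-CoA reductase needed for unsaturated fatty acids, lay just outside the threshold at 1.76 ± 0.54 (SE, limma adjusted p = 0.0501). The enoyl-CoA isomerases Eci1 and Eci2 were at 1.58 and 1.01, the peroxisomal bifunctional enzyme Ehhadh at 1.48 and the peroxisomal thiolase Acaa1a at 0.45, with adjusted p from 0.103 to 0.163.

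The electron transfer genes Etfa and Etfdh, which carry electrons from acyl-CoA dehydrogenases to ubiquinone, differed by 1.09 ± 0.48 (SE, limma adjusted p = 0.126) and 1.48 ± 0.61 (adjusted p = 0.11). Ppara lay between 11.45 and 12.99 on the 3 cKO HFD arrays and was at 13.14, 12.68 and 12.74 on control HFD arrays, against 13.11, 8.67 and 9.12 on cKO SD arrays and 7.61, 11.11 and 10.18 on control SD arrays. Its difference of 2.53 ± 0.83 (adjusted p = 0.0592) and that of Pdk4, the kinase that shuts off pyruvate oxidation, at 1.42 ± 0.44 (adjusted p = 0.052), did not pass. In control the diets did not overlap for either gene; in cKO they did, with cKO SD array 1 as high as the HFD arrays.

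Bdh1 was the one member close to the filter level in BAT. It was at 4.07, 4.0 and 4.18 on cKO HFD arrays and 3.97, 3.96 and 3.89 on control HFD arrays, against 4.37, 5.28 and 4.57 on cKO SD arrays and 5.08, 4.02 and 4.98 on control SD arrays. Its mean on HFD was 4.08 in cKO and 3.94 in control, below the filter level of 4.1275, so it was tested only because of its SD arrays (means 4.74 in cKO and 4.69 in control), and its call carries no reliable size or direction. Control SD array 2, at 4.02, stood with the HFD arrays. Its difference was -0.47 without the pair of low-Ucp1 arrays (adjusted p = 0.142) and -0.25 with the muscle covariate (adjusted p = 0.665).

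Within genotypes the diet comparison gave fewer calls. In cKO, 0 of 38 members were called by limma, with 0% of all genes called, and 7 members had an unadjusted p under 0.05; 36 were positive with a median of 1.21. The smallest p were those of Plin2 (2.18 ± 0.76 SE, adjusted p = 0.153), Abhd5 (0.61 ± 0.22, adjusted p = 0.155), Mgll (1.39 ± 0.53, adjusted p = 0.169) and Cpt1a. Groups did not overlap for 11 of 38 members higher on HFD, against 15.5% of all genes, and for 2 of 38 lower (Lpl and Bdh1), against 13.5%. The median was 0.68 without the pair of low-Ucp1 arrays and 0.23 with the muscle covariate.

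In control, 1 of 38 members was called (Acsl4), against 0.772% of all genes, 13 members had an unadjusted p under 0.05, and 34 were positive with a median of 1.51. After Acsl4 and Cpt1a came Lpl and Acot2 (2.46 ± 0.77 SE, limma adjusted p = 0.123). Groups did not overlap for 13 of 38 members higher on HFD, against 14.4% of all genes, and for 3 of 38 lower (Lpl, Acsl4 and Bdh1), against 10.9%. The median was 0.57 without the pair of low-Ucp1 arrays and 0.48 with the muscle covariate. The count of member calls was 13 without control SD array 2, with 2720 genes called in all, and 2 without control HFD array 3, with 88.

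Between genotypes on HFD in BAT, 0 of 38 members were called by limma, with 0% of all genes called, and 2 members had an unadjusted p under 0.05. Differences, cKO minus control, were negative for 30 members and positive for 7, with a median of -0.28 against -0.02 over all genes. Acsl4 differed by 0.72 ± 0.14 (SE, 95% interval 0.42 to 1.03, limma adjusted p = 0.479) and Cpt1a by -1.11 ± 0.40 (adjusted p = 0.561). Lpl stood at 0.23 ± 0.13 (adjusted p = 0.693) and G0s2 at 1.0 ± 0.63 (adjusted p = 0.731). For Acsl4 all 3 cKO HFD arrays were above all 3 control HFD arrays.

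The groups on HFD did not overlap for 2 of 38 members higher in cKO, against 7.33% of all genes. They were Acsl4 and Bdh1, and the HFD means of Bdh1 are below the filter level. For 9 of 38 lower in cKO the groups did not overlap, against 12.5%: Lipe, Mgll, Plin2, Plin5, Cpt1b, Hadha, Hadhb, Acot2 and Etfdh. Muscle markers were higher in cKO for 18 of 18, with a median of 2.35 and 0 called, and endothelial and mural markers lower for 10 of 10, with a median of -1.0 and 0 called. With the muscle covariate the members' median was 0.07, with 22 positive and 16 negative. The part of endothelial RNA was not tested.

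On SD, 0 of 38 members were called between genotypes in BAT, with 0% of all genes called and 0 members at an unadjusted p under 0.05 by limma, and the lowest adjusted p was 0.982. The 4 highest statistics were those of Mgll (-0.64 ± 0.53 SE), Plin2 (-0.85 ± 0.76), Cd36 (-0.24 ± 0.22) and Pdk4 (0.55 ± 0.63), each with an adjusted p of 0.982 by limma. The members' median was -0.08 with all arrays, -0.39 without the pair of low-Ucp1 arrays and 0.35 with the muscle covariate, so its sign was not settled. Muscle markers were higher in cKO on SD for 18 of 18, with a median of 3.07 and 0 called, but control SD array 2 alone was low. The marker mean was 17.46, 5.36 and 16.32 on control SD arrays 1 to 3, against 14.42, 17.26 and 16.49 on cKO SD arrays. The 95% interval reached 1.65 to either side of the difference for the median member, and the members differed widely in this precision.

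Averaged over diets, 0 members were called between genotypes by limma, with 0% of all genes called and 2 at an unadjusted p under 0.05, Acsl4 (0.34 ± 0.10 SE, adjusted p = 0.547) and Cpt1a (-0.67 ± 0.28, adjusted p = 0.554). G0s2 stood at 0.73 ± 0.45 (adjusted p = 0.66) and Plin2 at -0.86 ± 0.54 (adjusted p = 0.668). The interaction of genotype and diet gave 0 member calls, with 0% of all genes called, and 1 member at an unadjusted p under 0.05, Acsl4 (0.77 ± 0.19 SE, limma adjusted p = 1). Cpt1a stood at -0.87 ± 0.56, Lpl at 0.26 ± 0.18 and Slc27a1 at 0.95 ± 0.99 in that test. The diet differences of Acsl4 in cKO and in control are therefore not shown to differ over all genes.

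Other genes of the pathways, from lists chosen with earlier results of these data known, were tested in the same fit of BAT on HFD against SD, averaged over genotypes. Of 23 other uptake and droplet genes tested, 5 rose and 2 fell, against 9.96% of all genes called higher and 8.58% lower, with a median of 0.53. The rises were of Angptl4, an inhibitor of lipoprotein lipase and a PPAR target (2.64 ± 0.52 SE, limma adjusted p = 0.0171), Fabp5, a fatty acid binding protein (1.33, adjusted p = 0.0226), the droplet protein gene Hilpda (0.33, adjusted p = 0.024), the transporter Slc27a4 (0.31, adjusted p = 0.0315) and Lipa, the lysosomal acid lipase (2.91, adjusted p = 0.0392). The falls were of the droplet coat gene Plin4 (-1.60 ± 0.26, adjusted p = 0.012) and of Fitm1, a droplet-forming protein of skeletal muscle (-4.42, adjusted p = 0.0387). Without the pair of low-Ucp1 arrays Plin4 alone was called (-1.26 ± 0.15, adjusted p = 0.0367), and with the muscle covariate none of the 7 (Plin4 -1.17, adjusted p = 0.212).

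Of 32 other oxidation genes tested, 4 rose and none fell, a share near the 9.96% of all genes called higher, with a median of 0.74. They were the peroxisomal genes Nudt19 (0.82, limma adjusted p = 0.0255), Acox3 (0.91, adjusted p = 0.0344), Hsd17b4 (1.60, adjusted p = 0.039) and Acox2 (0.37, adjusted p = 0.0472). Of 5 ketone body genes 1 fell, the monocarboxylate transporter Slc16a7 (-1.04, adjusted p = 0.0276). Of 18 regulators 1 fell, Prkaa2, the AMPK catalytic subunit abundant in skeletal muscle (-3.01, adjusted p = 0.024). These 6 calls were not made without the pair of low-Ucp1 arrays (adjusted p 0.069 to 0.176) or with the muscle covariate (0.25 to 0.589). Between genotypes in BAT none of the 4 lists had a call, on either diet or averaged.

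The VMH tissue carried its markers, with 10 of 10 neuron markers, 8 of 8 VMH neuron markers and 11 of 11 astrocyte markers past the filter. cKO HFD array 2 stood apart in choroid plexus, tanycyte and pituitary markers, with a mean of 8.73 against 5.90 to 6.31 on the other 11 arrays. Oligodendrocyte markers were lower in cKO for 8 of 9 on each diet, with a median of -0.60 on HFD, -0.71 on SD and -0.54 averaged, and 0 called; they averaged 9.04 to 9.28 on cKO HFD arrays and 9.54 to 9.83 on control HFD arrays, against 8.77 to 10.02 on cKO SD arrays and 9.27 to 10.93 on control SD arrays. VMH neuron markers were higher on HFD for 8 of 8, averaged over genotypes, with a median of 0.35 and 0 called. They averaged 9.26 to 9.50 on cKO HFD arrays and 9.19 to 9.45 on control HFD arrays, against 8.92 to 9.04 on cKO SD arrays and 8.89 to 9.02 on control SD arrays. Their part in the members' differences was not tested. The 5 members below the filter were Lpl, Plin5, Cpt1b, Ehhadh and Ppara, with mean log2 signals from 4.72 to 5.43. Within groups the members' range had a median of 0.16 in cKO HFD and 0.13 in control HFD, against 0.21 in cKO SD and 0.31 in control SD. The all-gene medians of that range were 0.18 in each of the first 3 groups and 0.23 in control SD. Control SD array 1 held the lowest value of 13 of the 33 members, with 22.8% of all genes, and cKO SD array 1 that of 8, with 11.3%.

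No member was called in VMH in any of the 7 comparisons. Between genotypes 0 of 33 were called by limma on HFD (0.303% of all genes), 0 on SD (0.272%) and 0 averaged over diets (0.661%), with 4, 3 and 5 members at an unadjusted p under 0.05. Between the diets 0 were called in cKO (0.00618% of all genes), 0 in control (0%) and 0 averaged over genotypes (0.0124%), with 1, 2 and 1 at an unadjusted p under 0.05. The interaction gave 0 (0%) and 0 at an unadjusted p under 0.05. The members' median difference between genotypes was 0.01 on HFD, 0.04 on SD and 0.02 averaged.

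Averaged over diets, the highest statistics between genotypes in VMH were those of 2 spiral genes, Hadha and Acadm, and of Mgll and Acot2. Hadha differed by 0.16 ± 0.05 (SE, 95% interval 0.05 to 0.27, limma adjusted p = 0.276), Acadm, the medium-chain dehydrogenase, by 0.20 ± 0.07 (adjusted p = 0.292), Mgll, which in brain also degrades the endocannabinoid 2-arachidonoylglycerol, by 0.23 ± 0.09 (adjusted p = 0.341) and Acot2 by 0.30 ± 0.11 (adjusted p = 0.365). Over the 33 members the differences ran from -0.19 to 0.30, and every 95% interval lay within -0.39 to 0.55. In the same fit Fabp7, an astrocyte gene for binding fatty acids, rose by 3.84 ± 0.23 (adjusted p = 1.46e-05).

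Hadha in VMH was at 10.16, 10.33 and 10.27 on cKO HFD arrays and 10.03, 10.10 and 10.10 on control HFD arrays, against 10.06, 10.20 and 10.10 on cKO SD arrays and 9.85, 10.01 and 10.08 on control SD arrays. On HFD the genotypes did not overlap (0.18 ± 0.07 SE, limma adjusted p = 0.394), and on SD they did. Mgll was at 7.14, 7.04 and 7.47 on cKO HFD arrays and 6.78, 7.03 and 6.75 on control HFD arrays, a difference of 0.36 ± 0.12 (adjusted p = 0.311) with groups that all but touched. Acot2 differed by 0.38 ± 0.16 on HFD (adjusted p = 0.405) and Slc27a2 by -0.18 ± 0.08 (adjusted p = 0.421). On HFD the genotypes did not overlap for 2 of 33 members higher in cKO, Hadha and Mgll, against 2117 of 16178 genes. They did not overlap for 5 members lower in cKO (Slc27a2, Cpt1a, Acadl, Eci2 and Etfa), against 1143 genes.

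On SD, Acadm in VMH was at 9.33, 9.41 and 9.44 on cKO arrays and 8.91, 9.25 and 9.14 on control arrays, a difference of 0.29 ± 0.09 (SE, limma adjusted p = 0.563). All cKO values were above all control values, as they were for Acsl5, so for 2 of 33 members against 1135 of 16178 genes. No member was lower in cKO without overlap, against 470 genes. Cpt2 differed by 0.26 ± 0.10 (adjusted p = 0.663), Acsl5 by 0.19 ± 0.09 (adjusted p = 0.736) and Hadha by 0.14 ± 0.07 (adjusted p = 0.798). Without cKO HFD array 2, the VMH array of high choroid and pituitary markers, the number of member calls was 0 in each of the 7 comparisons.

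Between the diets in VMH, Cpt2 was at 6.44, 6.45 and 6.50 on cKO HFD arrays, against 6.58, 6.93 and 6.77 on cKO SD arrays, a difference of -0.30 ± 0.10 (SE, limma adjusted p = 0.389) without overlap. In control, Cpt2 was at 6.41, 6.48 and 6.49 on HFD, against 6.39, 6.39 and 6.70 on SD, and the groups overlapped. Also in cKO, Hadha differed by 0.13 ± 0.07 (adjusted p = 0.613), Acot2 by 0.26 ± 0.16 (adjusted p = 0.656) and Mgll by 0.17 ± 0.12 (adjusted p = 0.705). In control the highest statistics were those of Acadm (0.23 ± 0.09 SE, adjusted p = 0.544), Acadl (0.40 ± 0.16, adjusted p = 0.553), Cd36 (0.33 ± 0.16, adjusted p = 0.614) and Acads (-0.11 ± 0.07, adjusted p = 0.712). The diets did not overlap for 1 of 33 members lower on HFD in cKO (Cpt2), against 918 of 16178 genes. In control this held for 1 (Acads), against 612 genes. No member was higher on HFD without overlap, against 1932 genes in cKO and 1405 in control.

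Averaged over genotypes, the VMH diet differences with the highest statistics were of Cpt2 (-0.17 ± 0.07 SE, limma adjusted p = 0.368), Hadha (0.11 ± 0.05, adjusted p = 0.393), Acadm (0.14 ± 0.07, adjusted p = 0.422) and Acadl (0.23 ± 0.12, adjusted p = 0.457). In the interaction they were of Cpt2 (-0.26 ± 0.14, adjusted p = 0.88), Cd36 (-0.39 ± 0.22, adjusted p = 0.88), Etfa (-0.21 ± 0.14, adjusted p = 0.889) and Mgll (0.26 ± 0.17, adjusted p = 0.89). Of the other pathway genes in VMH, 1 of 18 uptake and droplet genes rose in cKO, Fabp5, by 0.78 ± 0.10 on HFD (SE, limma adjusted p = 0.00505), by 0.66 ± 0.10 on SD (adjusted p = 0.0177) and by 0.72 ± 0.07 averaged (adjusted p = 0.000335). None of 28 oxidation genes, 5 ketone body genes or 16 regulators was called between genotypes, and Abcd2 (0.24, adjusted p = 0.28), Slc16a1 (0.20, adjusted p = 0.418) and Ppargc1b (-0.10, adjusted p = 0.443) had the smallest averaged p of these lists.

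**Figure D5:**
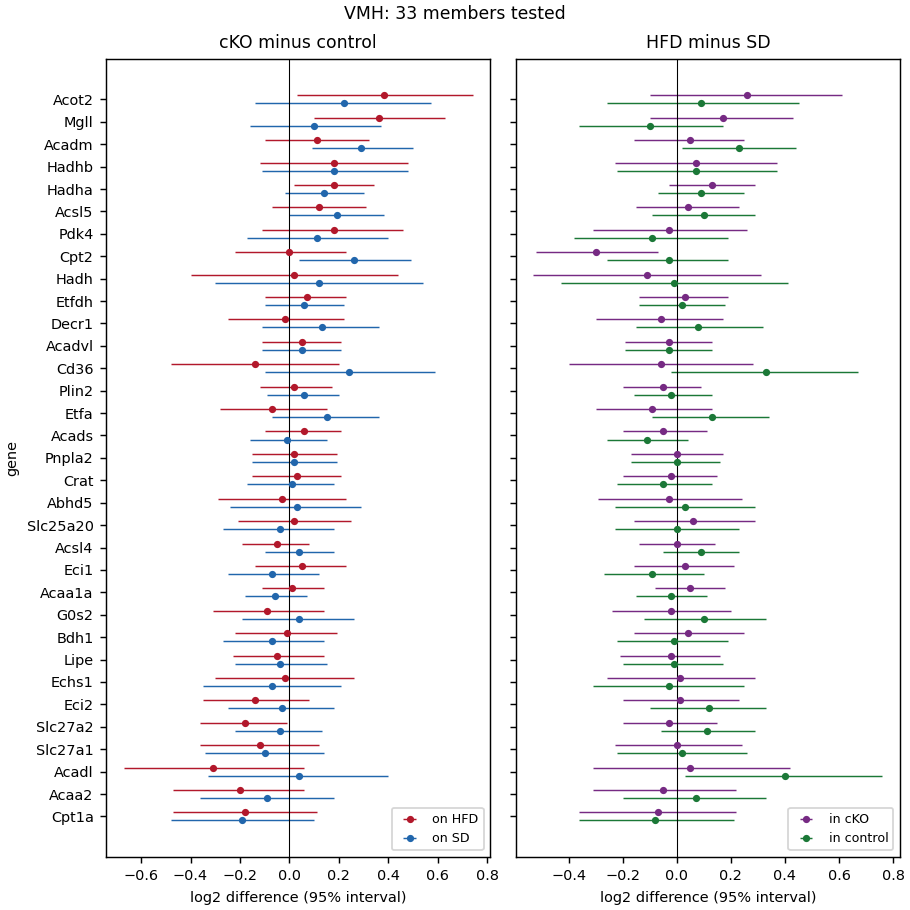
Log2 differences of the 33 members tested in VMH with 95% intervals, cKO minus control on HFD (red) and on SD (blue) at left, and HFD minus SD in cKO (purple) and in control (green) at right; genes run from the highest to the lowest genotype difference averaged over diets. Averaged over diets the differences lie between -0.19 and 0.30, and no member was called.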

How the data were processed

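Each array's deposited column holds log2 signals; the submitters' processing notes name Affymetrix Expression Console 1.1.1 and PLIER 2.0, with no role given, and the between-array normalization is not given in the sources used here. Of 72688 features, 6918 were controls, and 30604 had 1 gene symbol in the platform annotation, 2146 several and 33020 none; 30602 features matched a mouse gene table of GRCm38.p6, used for names, and 1135 symbols were updated. Values were used as deposited. Within each tissue, the 4 groups' means were fitted to 12 arrays by limma 3.58.1 (R 4.3.3), without a block, and 7 comparisons were tested two-sided with Benjamini-Hochberg adjustment over all genes tested.

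The members and lists were chosen with earlier results of these data known. Full statistics are given for members past the threshold, up to 12 in a comparison, and, where fewer than 4 passed, for the 4 with the largest statistic; from each pathway list, the genes past the threshold or those of smallest p. The procedure was tested on simulated data. Each fit was repeated with array weights, with the replicate number as a block, on the compared groups alone, after quantile normalization, after adding 16 to linear signals, without the filter, with features averaged per gene, with limma's prior trended and robust, and without each array. The 2 low-Ucp1 arrays and the muscle covariate were chosen after seeing the data.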

Additional observations from a re-analysis of the deposited data

How the results depend on the processing

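In VMH the member calls were 0 in every alternative, and in BAT they were 0 in every alternative for genotype on SD, genotype averaged over diets and the interaction. For genotype on HFD in BAT, array weights gave 1 call (Acsl4, 0.77, limma adjusted p = 0.0322), with 190 genes called in all. For diet in control, the 1 call became 0 with quantile normalization, a trended and robust prior, array weights, a replicate block, only the groups compared, the low-Ucp1 pair left out or the muscle covariate. It became 0 to 13 without 1 array, the 13 with 2720 genes called in all. For diet in cKO, array weights gave 34 calls against 0, with 8636 of 17104 genes called in all against 0. For diet averaged over genotypes, the 8 calls became 5 with no filter, 32 with array weights, 2 with a replicate block, 0 without the low-Ucp1 pair and 0 with the muscle covariate. The calls over all genes, 3171, became 2118, 5582, 1541, 121 and 14 in that order of settings. Without 1 array there were 1 to 31 member calls, the 31 with 5978 genes called in all. In BAT the array weights did not reach their convergence tolerance and ran from 0.00 on control SD array 3 to 30.45 on cKO SD array 3. That setting therefore leaves out the first of these arrays. The weights on cKO SD arrays 1 and 2 were 0.61 and 1.12, so its 34 calls for diet in cKO rest mostly on cKO SD array 3 for the SD side. Same-numbered arrays had correlated deviations between -0.772 and 0.39 in BAT and between -0.351 and 0.28 in VMH, so the replicate number is not shown to pair them. For genotype on SD in BAT, Plin2 turned to 0.11 with array weights, Pdk4 to -0.30 with array weights and -0.10 without the low-Ucp1 pair. Without 1 array, Pdk4 ran from -0.07 (control SD array 1 left out) to 1.15 and Cd36 from -0.46 to 0.02 (cKO SD array 2 left out); none was called. Signal at the ceiling on both diets limits what Acadl can show, and Cd36 is flat close to it.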
